A study of Bos taurus with 18 samples.

Results

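The arrays compared here asked how gene expression in bovine blastocysts that had formed their cavity by day 6 differed after 2 further days of culture. The rule was the array title: the 3 arrays titled day6+2 were set against the 3 titled day6, which made 6 of the 18 arrays of the series. Day6 blastocysts were collected when the blastocoel, the fluid-filled cavity, had formed. Day6+2 blastocysts reached that stage on the same day and were then cultured for 2 more days. The 3 arrays of day6+1, with 1 extra day, and the 3 of day8, whose cavity formed on day 8 and which had no extra days, were used for reference. All groups shared the same origin: oocytes from slaughterhouse ovaries, fertilised in vitro with the semen of 1 bull, and co-culture with VERO cells, which are a line of monkey kidney cells. The RNA was amplified in 2 rounds and hybridised in 1 colour to an Agilent array of the EmbryoGENE bovine design. The number of embryos behind an array is not given in the labels. Nor do they say that the replicates came from separate cultures, and the p-values therefore reflect only the spread among these samples, which may be technical.

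A blastocyst consists of an outer trophectoderm, which pumps fluid into the cavity and later forms the placenta, and an inner cell mass, which sorts into epiblast and hypoblast. In ruminants the trophectoderm prepares for a long free-living phase before attachment. It secretes interferon tau, the signal by which the mother recognises pregnancy, and later pregnancy-associated glycoproteins, Kunitz-domain proteins, steroids and prostaglandins. Whole embryos were measured, so a larger share of cells of a type and more RNA per cell cannot be told apart in any value given here.

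The 6 arrays were of similar quality. The median raw signal over all 18 arrays ran from 157 to 302 intensity units, with a local background of 14 to 21. Between 71.5% and 81.8% of probes exceeded the negative control spots. Pearson correlations over all features were 0.974 to 0.978 within day6, 0.976 to 0.979 within day6+2 and 0.957 to 0.969 between the groups. Levels and differences are on the log2 scale of normalized intensity, and a level of 1 probe is not compared with that of another. The value after ± is the standard error from the fit (n = 3 arrays a group). A gene is said to have risen or fallen where the Benjamini-Hochberg adjusted p of the limma fit over all 34336 features was under 0.05, and every adjusted p below comes from that fit. Precision is limited by the number of arrays.

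Of the 34336 features, 1224 (3.56%) differed between day6+2 and day6, 789 of them higher and 435 lower. Among the 14568 named genes 509 rose (3.49%) and 259 fell (1.78%), and the other 456 features were probes with no gene symbol. The median rise was 1.20 and the median fall -1.06, while the median difference over all features was -0.02. Rises were also the larger changes: 77 genes rose and 19 fell by more than 2 log2 units, and 22 rose and 2 fell by more than 3. The 3 arrays of the groups did not overlap at 1220 of the 1224 features, against 18.1% of all features. The 1224 were chosen on these same arrays, so this separation follows largely from the choice and is no further support. The count depended on single arrays: leaving out day6 replicate 2 gave 689 and leaving out day6+2 replicate 2 gave 696, while the fits without any other of the 6 arrays gave 826 to 1000. Of the 183 genes named below that rose or fell, 98 kept the call in each of the 6 fits that left out 1 array, and the others are named in their paragraphs. A gene named there as not passing in every fit lost the call in 1 or more of the 6. Other probes were kept for 270 of the 768 named genes past the threshold. Every other probe moved in the same direction for 209 of them. For 52 each moved by over 50% of the difference on the probe tested. None of the 1224 belonged to the 373 features that followed the first principal component of the series, whose mean level was 8.51, 8.59 and 9.50 in day6 and 8.70, 8.47 and 8.66 in day6+2. That component parted the arrays within day6+1 (36.0, -12.2 and -21.4) and within day7 (46.0, -17.5 and -5.4). The fit takes its spread from all 18 arrays, so features that followed the component had little room to pass. The part of the component in the calls was not tested.

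The 6 arrays lay on slides that both groups shared, which allowed the comparison to be repeated on separate arrays. Slides are known from the file names alone. Slide 1 held replicates 1 and 2 of both groups and slide 4 held replicate 3 of both. Within slide 1 alone, 1204 features passed the threshold. On slide 4, whose arrays had no part in that choice, 1137 of them (94.4%) differed in the same direction, against 57.9% of all features. Of the 790 features higher on slide 1, 748 were higher on slide 4, with median differences of 1.31 and 0.96. Of the 414 lower on slide 1, 389 were lower on slide 4, with medians of -1.21 and -0.86. The features were chosen on slide 1, which by itself favours larger differences there. The 183 genes named below that rose or fell had the same direction on slide 4, whose arrays are part of that comparison, and for 35 of them the difference there was over 1.5 times smaller than over all 6 arrays.

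**Figure D1:**
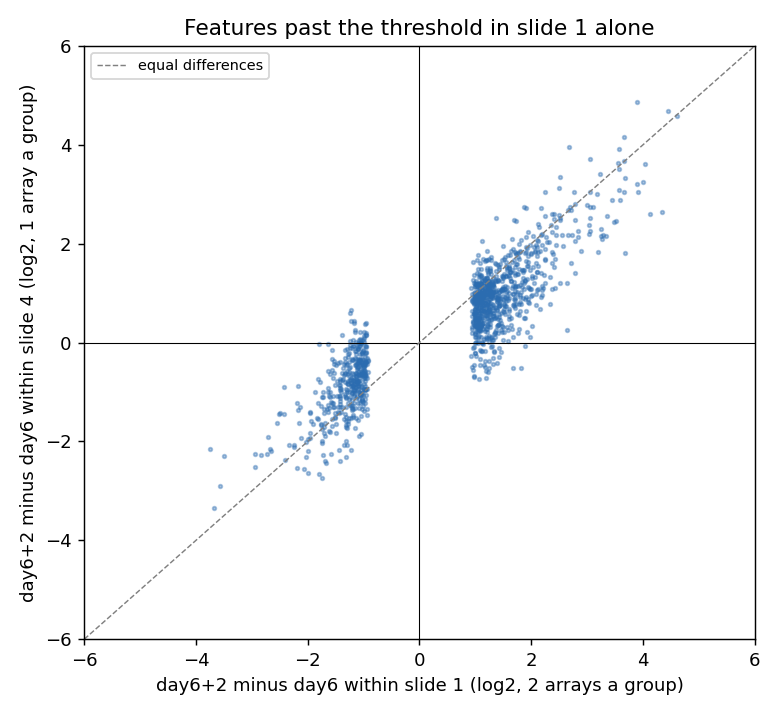
Difference between day6+2 and day6 on slide 1 (horizontal axis, log2, 2 arrays a group) and on slide 4 (vertical axis, log2, 1 array a group) for the 1204 features past the threshold within slide 1; each point is a feature. The points fill mainly the upper right and lower left quadrants, where 1137 of them lie, and most lie nearer to 0 on slide 4 than the dashed line of equal differences. The choice of features on slide 1 favours larger differences there.

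Many genes rose in the stretch of chromosome 8 that holds the interferon genes. IFNT, the gene of interferon tau, read 12.12, 11.29 and 11.79 on the day6 arrays and 15.70, 15.05 and 15.13 on the day6+2 arrays. The groups stood well apart, with a difference of 3.56 ± 0.42 (adjusted p = 3.6e-05). The symbol IFNT is an older name of both IFNT2 and IFNT3 in the reference gene table. In the gene order of the bovine assembly ARS-UCD2.0, 62 genes lie from IFNT3 up to the interferon beta gene IFNB1, and 22 of them were on the array. Of these 22, 13 rose, 0 fell and 9 did not pass. IFN-tau-c1, another interferon tau gene, rose by 3.05 ± 0.41, from 8.15, 8.31 and 8.01 to 11.93, 10.63 and 11.05. IFNW1, an interferon omega gene, rose by 1.52 ± 0.27. The other 10 genes that rose carry only a locus number in the annotation, and they are given no role here.

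These numbered loci rose by 1.80 to 3.66, and they were 10 of the 17 such loci of the region on the array. LOC781778 read 9.07, 8.93 and 9.09 in day6 and 13.41, 12.37 and 12.30 in day6+2 (3.66 ± 0.48, adjusted p = 8.51e-05). LOC618801 rose by 3.58 ± 0.45, LOC617112 by 3.45 ± 0.47 and LOC618943 by 3.25 ± 0.47. On LOC781778, LOC617112 and LOC618943 the highest of the 3 day6+2 arrays was replicate 1, as for IFNT. The interferon genes of the region are close copies of each other, so their probes may share signal and the number of separate genes behind these rises is uncertain. The 9 genes of the same stretch that did not pass lay near 0, among them the interferon alpha gene IFNAC (-0.14 ± 0.21) and the ubiquitin ligase adaptor KLHL9 (0.06 ± 0.22).

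**Figure D2:**
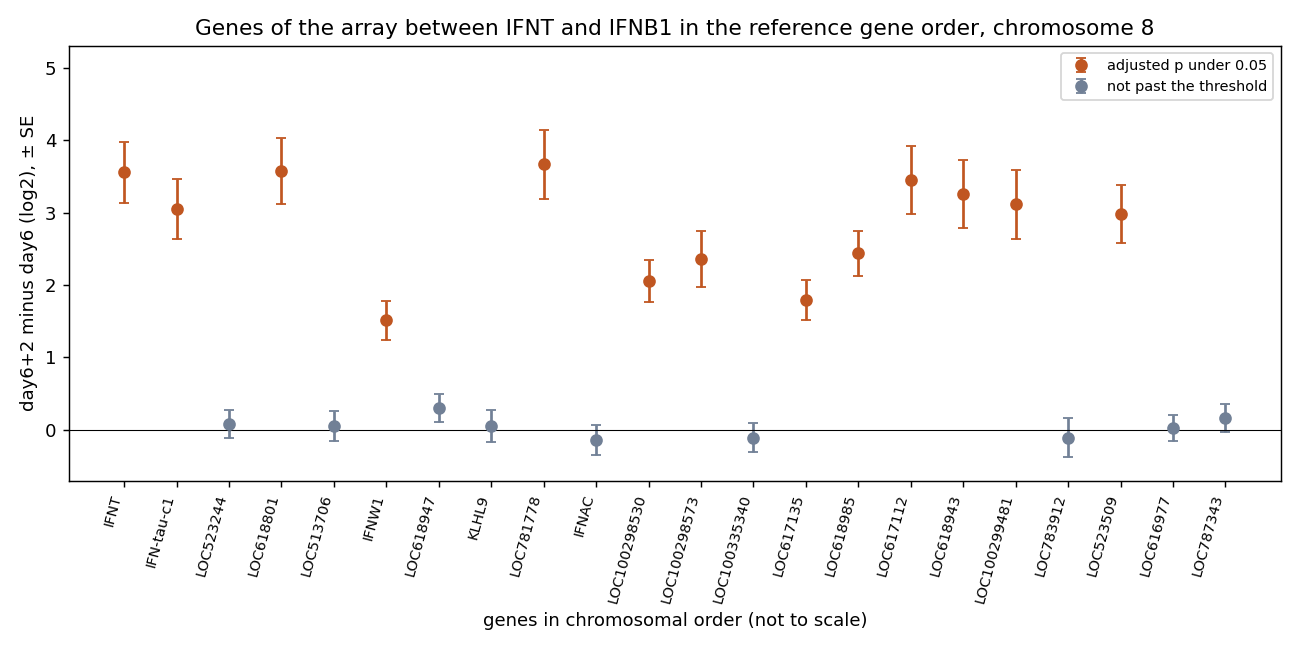
Difference between day6+2 and day6 (log2, bars are ± the standard error of the fit, n = 3 arrays a group) for the 22 genes of the array from IFNT to IFNB1, in their order on chromosome 8 and not to scale. The 13 genes past the threshold lie between 1.52 and 3.66 and alternate along the stretch with 9 genes near 0.

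The 2 largest rises of all named genes lay elsewhere on chromosome 8, on either side of one zinc finger gene. LOC513329 read 8.72, 8.12 and 7.32 in day6 and 12.72, 13.33 and 11.90 in day6+2 (4.60 ± 0.64, adjusted p = 0.000176). LOC783399 read 11.01, 10.43 and 9.91 in day6 and 14.73, 15.60 and 14.59 in day6+2 (4.53 ± 0.54, adjusted p = 3.64e-05). On both, day6 replicate 3 was the lowest array and day6+2 replicate 2 the highest. The gene between them, ZFP37, did not pass (-0.04), nor did SLC46A2 (-0.25) on one side and SLC31A2 (0.65) on the other. The annotation gives neither locus a name.

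A few genes of other secretory products of the ruminant trophoblast rose as well. The trophoblast list covered interferon tau, pregnancy-associated glycoproteins, trophoblast Kunitz-domain proteins and prolactin relatives, and it also held DLX3, a transcription factor. Of its 21 members tested, 6 rose (28.6%), IFNT and DLX3 among them, 0 fell and 15 did not pass, and its median difference was 0.15. PAG2, a pregnancy-associated glycoprotein of the aspartic protease family, read 10.50, 8.30 and 9.87 in day6 and 12.91, 13.23 and 11.68 in day6+2 (3.05 ± 0.57, adjusted p = 0.00253). PAG12 rose by 2.74 ± 0.56, from 9.03, 7.35 and 8.47 to 10.86, 11.89 and 10.31. Day6 replicate 2 was the lowest array for both. No day6 array showed PAG11 above background, and its level in day6+2 was higher by at least 10.6-fold. It read 10.24, 10.66 and 9.24; another probe of the gene differed by 0.46. The glycoproteins are a multigene family, so their probes may share signal. PAG12 did not pass in every fit that left out 1 of the 6 arrays, with an adjusted p of up to 0.0587.

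The Kunitz-domain gene TKDP1 read 10.03, 9.93 and 10.08 in day6 and 12.42, 13.54 and 12.87 in day6+2 (2.93 ± 0.57, adjusted p = 0.00334). The tight day6 arrays lay more than 2 log2 units below every day6+2 array. LOC618696, which lies 2 genes away from TKDP1 on chromosome 13, rose by 2.65 (adjusted p = 0.00253), whereas TKDP4, 2 genes beyond TKDP1, differed by 0.09 and did not pass. The remaining member of the list that rose was DLX3, a homeobox factor of the trophoblast (1.51 ± 0.31).

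Steroid and prostaglandin synthesis were represented by a few strongly raised enzymes. Of 23 steroid genes tested, 4 rose (17.4%), 0 fell and 19 did not pass, and the median difference was 0.26. CYP11A1, which cleaves the side chain of cholesterol to give pregnenolone, read 8.47, 7.21 and 8.91 in day6 and 11.24, 11.40 and 11.35 in day6+2 (3.13 ± 0.45, adjusted p = 0.000231). HSD3B1, which turns pregnenolone into progesterone, read 9.53, 8.16 and 9.10 in day6 and 12.56, 12.96 and 12.15 in day6+2 (3.63 ± 0.39). For both enzymes the day6 arrays spread over more than 1 log2 unit, with replicate 2 lowest. STAR, which brings cholesterol into the mitochondrion, did not pass (0.61 ± 0.24, adjusted p = 0.214). The oestrogen sulfotransferase SULT1E1 stayed below the background limit in day6, and its level in day6+2 was higher by at least 2.40-fold, and another probe of it differed by 0.14. SULT1E1 did not pass in every fit that left out 1 of the 6 arrays, with an adjusted p of up to 0.0914.

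Of 19 prostaglandin genes, 5 rose (26.3%), 0 fell and 14 did not pass, with a median of 0.16. PTGS2, the inducible cyclooxygenase, read 11.49, 10.32 and 10.31 in day6 and 13.33, 13.39 and 12.28 in day6+2 (2.29 ± 0.41, adjusted p = 0.00177). The aldo-keto reductase AKR1B1, which can form prostaglandin F2 alpha and belongs to both lists, rose by 2.23 ± 0.34, and its other probe differed by 1.53. The prostaglandin reductase PTGR1 rose by 1.75 ± 0.22 and the transporter SLCO2A1 by 1.65 ± 0.33, the other probe of the latter differing by -0.18. PPARG, a nuclear receptor for lipid ligands, rose by 1.06 ± 0.29 (adjusted p = 0.0487). PTGES, which makes prostaglandin E2, did not pass (0.90 ± 0.28, adjusted p = 0.0841) although its arrays did not overlap. PPARG passed in none of the 6 fits that left out 1 array, with an adjusted p of up to 0.205.

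Several of the other largest rises were enzymes and carriers of varied function. HEBP2, a heme-binding protein, read 10.46, 8.63 and 9.25 in day6 and 13.21, 13.21 and 13.41 in day6+2 (3.83 ± 0.41, adjusted p = 1.44e-05). Its day6+2 arrays lay close together, while its other 2 probes differed by -0.01 to 0.67. PAGE4, a cancer/testis antigen gene that is also expressed in human placenta, rose by 3.75 ± 0.46, from 11.84, 9.93 and 11.32 to 14.47, 15.32 and 14.57. ENPP3, a cell-surface nucleotide hydrolase, rose by 3.69 ± 0.57, from 8.06, 7.76 and 7.88 to 10.39, 12.59 and 11.80. Its day6+2 arrays spread over more than 2 log2 units and all lay above day6. IFI30, a lysosomal thiol reductase, rose by 3.36 ± 0.48 and by 2.69 on its other probe. QSOX1, which forms disulfide bonds in secreted proteins, rose by 3.29 ± 0.32 (adjusted p = 9.64e-06), from 9.07, 8.32 and 8.48 to 11.48, 12.36 and 11.89.

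**Figure D3:**
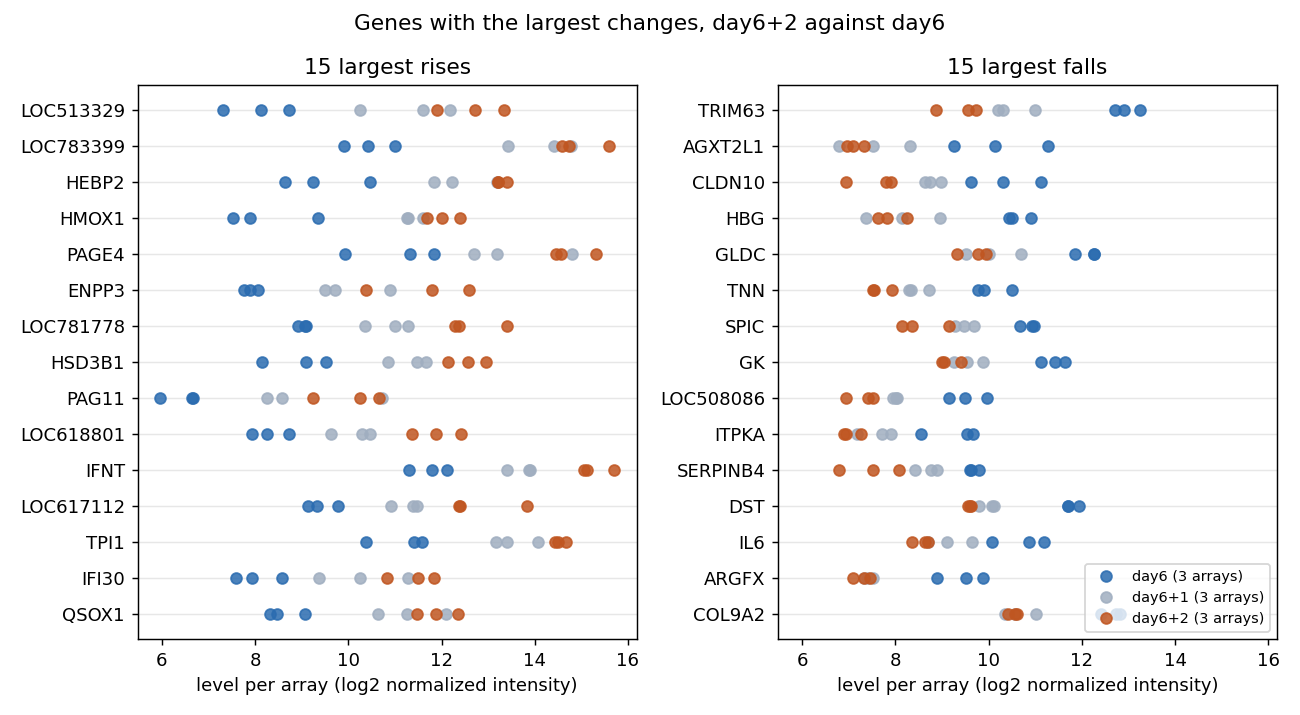
Level on each array (log2 normalized intensity) of the 15 named genes with the largest rises (left) and the 15 with the largest falls (right) among those past the threshold whose arrays did not overlap; points are the 3 arrays of day6 (blue), day6+1 (grey) and day6+2 (orange). The blue and orange points are apart for each gene, as the choice required, and the grey points lie mostly between them or beside the orange ones.

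The largest fall was that of TRIM63, a ubiquitin ligase known from muscle wasting. It read 12.72, 13.25 and 12.90 in day6 and 8.88, 9.73 and 9.56 in day6+2 (-3.57 ± 0.38, adjusted p = 1.44e-05). Its arrays were tight in both groups and did not come near each other. Of the 19 genes of the FOXO and atrophy list tested, TRIM63 and the co-activator CITED2 (-1.25 ± 0.26) fell, the Krüppel-like factor KLF15 rose (1.08 ± 0.29) and 16 did not pass. FBXO32, the other ubiquitin ligase of muscle atrophy, differed by -0.60 ± 0.24 (adjusted p = 0.242). CITED2 and KLF15 did not pass in every fit that left out 1 of the 6 arrays, with a highest adjusted p of 0.0561 to 0.194.

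Of the 4 genes of glycine breakdown 3 fell. The mitochondrial glycine cleavage system consists of the decarboxylase GLDC, the lipoate carrier GCSH, the aminomethyltransferase AMT and the dehydrogenase DLD. GLDC read 12.27, 12.27 and 11.85 in day6 and 9.78, 9.33 and 9.94 in day6+2 (-2.44 ± 0.47, adjusted p = 0.00336). GCSH read 14.22, 14.71 and 14.04 in day6 and 11.85, 12.24 and 12.59 in day6+2 (-2.10 ± 0.33), and its other 2 probes differed by -2.14 and -1.89. AMT fell by 1.09 ± 0.25, from 11.32, 11.73 and 10.76 to 10.12, 10.18 and 10.25. DLD, which other dehydrogenase complexes share, did not pass (0.27 ± 0.34). AMT did not pass in every fit that left out 1 of the 6 arrays, with an adjusted p of up to 0.106.

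The list of one-carbon and amino acid enzymes that holds these genes had 40 members tested, of which 5 fell (12.5%), 3 rose (7.5%) and 32 did not pass. The other members that fell were the phosphoethanolamine lyase AGXT2L1, from 10.15, 11.28 and 9.26 to 7.08, 7.34 and 6.97 (-3.10 ± 0.49), and the glycine methyltransferase GNMT (-1.14 ± 0.24, -0.99 on its other probe). In day6+2 AGXT2L1 was above background on only 2 of 3 arrays, so the size of its fall is uncertain. The mitochondrial folate enzyme MTHFD2 rose by 1.64 ± 0.36, the folate carrier SLC19A1 by 1.02 ± 0.21 and the cystathionine lyase CTH by 1.02 ± 0.23. SHMT2, which makes glycine from serine, differed by -0.49 ± 0.18 and did not pass. Among 30 amino acid transporters 2 fell, the glutamate transporter SLC1A3 (-1.62 ± 0.23) and the proton-coupled SLC36A4 (-0.97 ± 0.18), 0 rose and 28 did not pass. GNMT, MTHFD2, SLC19A1 and CTH did not pass in every fit that left out 1 of the 6 arrays, with a highest adjusted p of 0.0523 to 0.0752. MTHFD2 did not pass when the probes of a gene were averaged.

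Glycerol kinase and a cytokine were among the largest falls on the probe tested but not on their other probe. GK, which phosphorylates glycerol, read 11.43, 11.64 and 11.13 in day6 and 9.01, 9.41 and 9.05 in day6+2 (-2.24 ± 0.20, adjusted p = 3.12e-06), while its other probe differed by 0.31. IL6, the interleukin that acts through STAT3, read 10.87, 11.20 and 10.07 in day6 and 8.70, 8.35 and 8.63 in day6+2 (-2.15 ± 0.28), while its other probe differed by 0.19. STAT3 itself fell by 1.15 ± 0.20, and its other 2 probes differed by -0.28 and -0.18. The shared receptor subunit IL6ST did not pass (-0.52 ± 0.22).

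Among the remaining large falls were matrix, junction and blood genes. CLDN10, a claudin that forms ion pores in tight junctions, read 9.61, 11.12 and 10.32 in day6 and 7.91, 6.95 and 7.80 in day6+2 (-2.80 ± 0.34). The gamma haemoglobin gene HBG fell by 2.72 ± 0.64, from 10.43, 10.91 and 10.51 to 7.83, 7.62 and 8.25. The tenascin TNN (-2.40 ± 0.38), the collagen chain COL9A2 (-2.12 ± 0.34) and the cytoskeletal linker DST (-2.19 ± 0.36) fell. So did ITPKA, an inositol trisphosphate kinase (-2.21 ± 0.28), the serpin SERPINB4 (-2.21 ± 0.29) and the unnamed LOC508086 (-2.24 ± 0.32). The day6 and day6+2 arrays of these 8 genes did not overlap. In day6+2 ITPKA was above background on only 1 of 3 arrays, and CLDN10, SERPINB4 and LOC508086 on 2 of 3. The sizes of the falls of these genes are therefore uncertain. HBG did not pass in every fit that left out 1 of the 6 arrays, with an adjusted p of up to 0.0881.

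The transcription factors of the trophectoderm moved unequally. Of 29 genes of that list 8 rose (27.6%), 1 fell (3.45%) and 20 did not pass, and the median difference was 0.17. TFAP2A read 9.22, 8.15 and 8.05 in day6 and 10.78, 11.61 and 11.41 in day6+2 (2.80 ± 0.32, adjusted p = 2.73e-05), but its other 2 probes differed by only 0.10 and 0.70. ID2, an inhibitor of helix-loop-helix factors, rose by 1.93 ± 0.38, from 9.49, 8.93 and 9.31 to 10.82, 11.83 and 10.85. ASCL2, a helix-loop-helix factor that mouse placenta needs, rose by 1.76 ± 0.32, from 7.31, 7.15 and 7.29 to 8.38, 8.83 and 9.80. The homeobox factor DLX4 rose by 1.42 ± 0.24 and SFN, an epithelial 14-3-3 protein, by 1.70 ± 0.24. CDX2, which specifies the trophectoderm in the mouse, rose less, by 0.92 ± 0.21 (adjusted p = 0.0112), from 7.36, 7.25 and 7.80 to 7.84, 8.57 and 8.76. CDX2 did not pass in every fit that left out 1 of the 6 arrays, with an adjusted p of up to 0.0787.

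Among the other factors listed for the layer, GATA3 and TFAP2C did not pass and TEAD1 fell. GATA3 read 8.78, 9.21 and 9.09 in day6 and 9.41, 9.26 and 9.32 in day6+2, a difference of 0.30 ± 0.27 that did not pass. TFAP2C, abundant in both groups, differed by -0.21 ± 0.18 and its arrays overlapped. TEAD1, the DNA-binding partner of YAP, fell by 1.23 ± 0.26, from 9.08, 9.22 and 8.71 to 7.98, 7.25 and 8.08. Of 22 targets and parts of the Hippo pathway, in which YAP and TEAD factors act, 5 rose (22.7%), 0 fell and 17 did not pass, and the median was 0.04. The 5 were the ankyrin repeat protein ANKRD1 (1.27 ± 0.25), the TEAD co-factor VGLL1 (1.27 ± 0.29), the annexin ANXA3 (1.31 ± 0.32), the matrix protein THBS1 (0.94 ± 0.24) and the upstream regulator NF2 (0.71 ± 0.20). CTGF and CYR61, the usual readouts of YAP, did not pass (-0.50 ± 0.32 and 0.67 ± 0.31). TEAD1, VGLL1, ANXA3, THBS1 and NF2 did not pass in every fit that left out 1 of the 6 arrays, with a highest adjusted p of 0.0666 to 0.253. THBS1 and NF2 passed in none of these 6 fits.

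Epiblast and early embryo factors were the list with the largest share of falls. The lists were written with earlier results of these data known, so such a ranking is not independent of the data. Of 26 members tested 6 fell (23.1%), 3 rose (11.5%) and 17 did not pass, and the median difference was -0.21. POU5F1, the core factor of pluripotency, read 12.69, 12.75 and 12.63 in day6 and 12.14, 11.44 and 11.20 in day6+2 (-1.09 ± 0.26, adjusted p = 0.016). KLF4 fell by 1.71 ± 0.27, from 13.75, 13.66 and 13.41 to 11.93, 12.05 and 11.71. The Ets factor SPIC fell (-2.31 ± 0.24, -0.75 on its other probe), as did the early homeobox gene ARGFX (-2.14 ± 0.34). DPPA3, a maternal factor that protects DNA methylation in the mouse, fell (-1.31 ± 0.24, -0.77 on its other probe), and so did PRDM14 (-1.0 ± 0.25, -0.19 on its other probe). POU5F1 and PRDM14 did not pass in every fit that left out 1 of the 6 arrays, with a highest adjusted p of 0.101 to 0.203.

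The members that rose included another core factor of the same state. NANOG read 11.21, 9.67 and 10.13 in day6 and 12.55, 12.81 and 13.16 in day6+2 (2.51 ± 0.35, adjusted p = 0.000206). Its lowest day6+2 array was above its highest day6 array, the opposite order to POU5F1. TDGF1, a co-receptor for NODAL, rose by 2.71 ± 0.48, from 7.28, 7.32 and 7.43 to 9.67, 10.33 and 10.17, while its other probe differed by 0.05. The RNA-binding protein LIN28B rose by 0.83 ± 0.23. SOX2 was low on all 6 arrays, overlapped between the groups and did not pass (-0.34 ± 0.21). LIN28B passed in none of the 6 fits that left out 1 array, with an adjusted p of up to 0.183.

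Hypoblast genes gave no common direction. Of 25 tested, the apolipoprotein APOA1 (2.47 ± 0.38, 1.88 on its other probe) and the laminin chain LAMA1 (0.92 ± 0.20) rose, the receptor PDGFRA fell (-0.90 ± 0.22, with -0.53 to 0.24 on its other probes) and 22 did not pass. GATA4 read 12.63, 11.76 and 11.64 in day6 and 11.57, 12.56 and 12.13 in day6+2 and overlapped (0.07 ± 0.55). SOX17 overlapped as well (-0.23 ± 0.24). LAMA1 and PDGFRA did not pass in every fit that left out 1 of the 6 arrays, with a highest adjusted p of 0.074 to 0.135.

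Keratins and desmosomes belong to the epithelium of the outer layer. Of 23 such genes 5 rose (21.7%), 1 fell (4.35%) and 17 did not pass, with a median of 0.42. The desmosomal plaque protein DSP read 11.51, 10.61 and 10.99 in day6 and 13.06, 12.53 and 12.57 in day6+2 (1.69 ± 0.21, adjusted p = 5.49e-05). The desmosomal cadherin DSC2 rose by 1.69 ± 0.30 (-0.21 on its other probe), the periplakin PPL by 1.48 ± 0.26 and the galectin LGALS3 by 1.44 ± 0.23, whose other probes differed by 0.07 to 0.19. KRT19 rose by 1.75 ± 0.30, from 15.14, 13.10 and 14.05 to 15.78, 15.91 and 15.86, and KRT5 fell by 1.94 ± 0.38, from 8.79, 9.95 and 9.15 to 7.38, 7.46 and 7.23. The day6+2 arrays of KRT19 and all arrays of KRT8 (-0.00 ± 0.14) were near the top of the scale, where differences are compressed, and KRT18 did not pass (0.58 ± 0.18, adjusted p = 0.0946). Of 30 genes of junctions and fluid transport, the claudin CLDN23 rose (1.98 ± 0.41), CLDN10 and the junction adhesion molecule F11R (-0.94 ± 0.16) fell, and 27 did not pass. In this list 3.33% rose and 6.67% fell, against 3.49% and 1.78% of all named genes. CLDN23 did not pass in every fit that left out 1 of the 6 arrays, with an adjusted p of up to 0.0559.

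Targets of NRF2, the transcription factor that answers oxidants and electrophiles, had the largest share of rises. This ranking too is among lists written with earlier results known. Of 33 tested, 10 rose (30.3%), 0 fell and 23 did not pass, and the median was 0.30. HMOX1, which degrades heme, read 7.90, 7.52 and 9.35 in day6 and 11.69 to 12.40 in day6+2 (3.77 ± 0.41, adjusted p = 1.48e-05). SRXN1, which restores oxidised peroxiredoxins, read 10.44, 10.77 and 10.80 in day6 and 12.56, 12.86 and 12.89 in day6+2 (2.09 ± 0.23), and its other probe differed by 0.53. The quinone reductase NQO1 stayed below the same limit in day6, and its level in day6+2 was higher by at least 2.70-fold. There it read 8.42, 8.09 and 7.74. The glutathione genes GCLM (1.25 ± 0.25) and GSR (1.02 ± 0.21), the exporter ABCC2 (1.34 ± 0.24), the biliverdin reductase BLVRB (1.20 ± 0.22), the thioredoxin TXN (0.85 ± 0.19) and the ferritin heavy chain FTH1 (0.81 ± 0.17) rose, as did AKR1B1, given above. GSR and TXN did not pass in every fit that left out 1 of the 6 arrays, with a highest adjusted p of 0.0637 to 0.0871.

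Related defence and metal genes shared some of these members. Of 33 genes of peroxide and metal defence, the superoxide dismutase SOD1 (1.45 ± 0.25, 1.43 on its other probe), the lipid peroxidase GPX4 (0.85 ± 0.17) and the selenium carrier SEPP1 (1.05 ± 0.27) rose, the selenoprotein SEPW1 fell (-1.42 ± 0.26, with -1.40 and -0.65 on its other probes) and 29 did not pass. Of 28 genes of heme and iron 7 rose (25.0%), 3 fell (10.7%) and 18 did not pass. Beside HEBP2, HMOX1, BLVRB and FTH1, those that rose were the second heme oxygenase HMOX2 (1.11 ± 0.27), the iron transporter SLC11A2 (1.39 ± 0.29, with 1.31 and 1.41 on its other probes) and the heme synthesis enzyme ALAS1 (1.17 ± 0.29). Those that fell were HBG, the beta globin HBB (-1.74 ± 0.42) and the transferrin receptor TFRC (-1.15 ± 0.31), which brings iron into the cell. SEPP1, HMOX2, SLC11A2, ALAS1, HBB and TFRC did not pass in every fit that left out 1 of the 6 arrays, with a highest adjusted p of 0.061 to 0.251.

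Other stress lists held few rises. Of 35 genes of endoplasmic reticulum stress and secretion 4 rose (11.4%), 0 fell and 31 did not pass, with a median of 0.46. Above 0 were 29 of the 35 differences, against 7142 of 14568 over all named genes, and this was not tested. The chaperones HSPA5 and HSP90B1 rose by 1.43 ± 0.31 and 1.36 ± 0.30, and the quality control proteins SEL1L and EDEM1 by 1.18 ± 0.26 and 1.07 ± 0.19. Among 31 heat shock genes only HSPB8 rose (1.85 ± 0.45, with 2.64 on slide 1 and 0.25 on slide 4), 0 fell, and the inducible HSPA1A overlapped (-0.37 ± 0.40). Among 31 genes of p53 and apoptosis only BTG2, a p53 target that slows division, rose (0.91 ± 0.23), and 0 fell. In both lists 3.23% rose, near the 3.49% of all named genes. The apoptosis effector BAX differed by 0.48 ± 0.20 and did not pass. HSPA5, HSP90B1, SEL1L, HSPB8 and BTG2 did not pass in every fit that left out 1 of the 6 arrays, with a highest adjusted p of 0.0699 to 0.185. HSP90B1 and SEL1L did not pass when the probes of a gene were averaged.

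**Figure D4:**
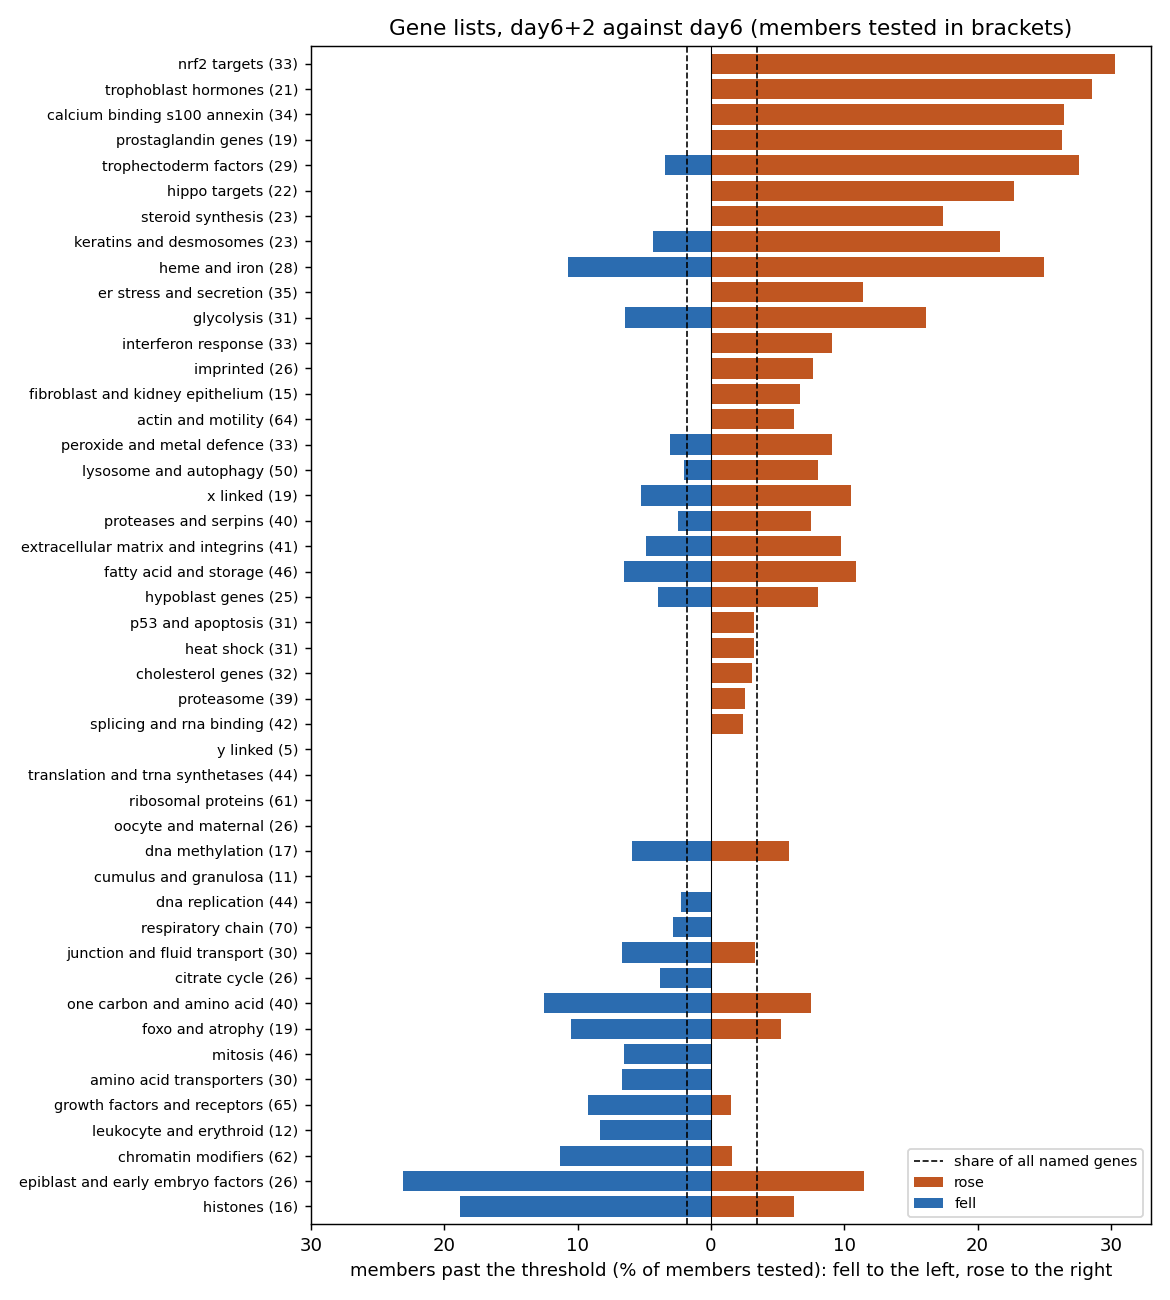
Share of each gene list's tested members that rose (orange, to the right) or fell (blue, to the left) in day6+2 against day6, in percent, with the number of members tested in brackets; dashed lines mark the shares of all named genes, 3.49% higher and 1.78% lower. NRF2 targets reach 30.3% at the top, epiblast and early embryo factors have 23.1% falling, and the ribosomal, translation and oocyte lists have 0 in either direction; lists share some members.

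Genes of central metabolism were divided into glycolysis, the citrate cycle and the respiratory chain, and the lists were not tested against each other. Of 31 genes of glycolysis and its control 5 rose (16.1%, against 3.49% of all named genes), 2 fell (6.45%) and 24 did not pass, and the median was 0.30. The triosephosphate isomerase TPI1 read 11.40, 10.38 and 11.57 in day6 and 14.51, 14.43 and 14.66 in day6+2 (3.41 ± 0.37, adjusted p = 1.44e-05). ENO1 rose by 1.64 ± 0.27 (0.29 on its other probe) and the lactate dehydrogenase LDHA by 1.07 ± 0.24 (1.18 on its other probe). Of the regulators, PFKFB3 (1.36 ± 0.37) and PDK1 (0.90 ± 0.21) rose and their relatives PFKFB4 (-1.03 ± 0.26) and PDK2 (-0.94 ± 0.25) fell. These enzymes set the rate of phosphofructokinase and of pyruvate entry into the citrate cycle. The other probes of PDK1 differed by -0.63 to 0.23. LDHA, PFKFB3, PDK1, PFKFB4 and PDK2 did not pass in every fit that left out 1 of the 6 arrays, with a highest adjusted p of 0.0906 to 0.227.

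Of 70 genes of the respiratory chain 2 fell (2.86%), 0 rose and 68 did not pass, with a median of -0.28. The share that fell lay near the 1.78% of all named genes. Below 0 were 58 of the 70 differences, against 7426 of 14568 over all named genes, and this was not tested. The 2 were the cytochrome CYC1 (-0.95 ± 0.20, 0.17 on its other probe) and the complex I subunit NDUFB6 (-0.67 ± 0.18). Of 26 citrate cycle genes only SUCLA2 fell (-0.87 ± 0.17, 3.85% of the list against 1.78% of all named genes) and 0 rose. The other probe of SUCLA2 differed by 0.00. NDUFB6 did not pass in every fit that left out 1 of the 6 arrays, with an adjusted p of up to 0.21.

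Lipid genes moved both ways. Of 46 genes of fatty acids and storage 5 rose (10.9%), 3 fell (6.52%) and 38 did not pass. The desaturase FADS2 read 13.29, 12.71 and 13.14 in day6 and 14.69, 14.70 and 14.81 in day6+2 (1.69 ± 0.21, adjusted p = 6.18e-05). Its neighbour in the desaturase family FADS3 rose by 1.89 ± 0.24 (0.37 on its other probe), the fatty acid carrier FABP5 by 1.63 ± 0.35, the acyltransferase AGPAT9 by 1.48 ± 0.24 and the elongase ELOVL1 by 1.18 ± 0.27. The triglyceride enzyme DGAT2 (-1.10 ± 0.25, with -1.57 on slide 1 and -0.15 on slide 4), the lipid droplet protein PLIN2 (-0.79 ± 0.19) and the carrier FABP3 (-0.92 ± 0.23) fell. CHPT1, which makes phosphatidylcholine, rose by 3.16 ± 0.28, from 8.31, 7.79 and 8.93 to 11.67, 11.47 and 11.38. Of 32 cholesterol genes only NPC2, which moves cholesterol out of the lysosome, rose (0.88 ± 0.25), and 0 fell. The share of this list that rose, 3.12%, was near the 3.49% of all named genes. FABP5, ELOVL1, DGAT2, PLIN2, FABP3 and NPC2 did not pass in every fit that left out 1 of the 6 arrays, with a highest adjusted p of 0.0665 to 0.187. NPC2 passed in none of these 6 fits. AGPAT9, DGAT2 and NPC2 did not pass when the probes of a gene were averaged.

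Few genes of cell division passed the test, and those that did fell. Of 46 mitosis genes 3 fell (6.52%), 0 rose and 43 did not pass, with a median of -0.25. Below 0 were 40 of the 46 differences, against 7426 of those of all 14568 named genes, and this was not tested. The 3 were the kinesin KIF20A (-1.06 ± 0.22), the ubiquitin carrier UBE2C (-1.06 ± 0.28) and the cyclin CCNB1 (-0.76 ± 0.20). Of 44 replication genes only GINS1 fell (-0.85 ± 0.20, 2.27% of the list against 1.78% of all named genes), 0 rose, and the median was -0.20. Of 62 chromatin modifiers 7 fell (11.3%), 1 rose (1.61%) and 54 did not pass, with a median of -0.18. JARID2, a partner of the Polycomb complex PRC2, fell by 1.27 ± 0.21, from 13.58, 13.76 and 13.67 to 12.43, 12.07 and 12.71, and the PRC2 methyltransferase EZH2 fell by 0.71 ± 0.18. The H3K9 methyltransferases SETDB1 (-0.92 ± 0.20) and SUV39H1 (-0.69 ± 0.18), the deacetylases HDAC6 (-0.99 ± 0.24) and HDAC8 (-1.01 ± 0.26) and the nucleosome-binding HMGN3 (-0.95 ± 0.22) also fell, and SMYD2 rose (0.99 ± 0.25, -0.12 on its other probe). KIF20A, UBE2C, CCNB1, GINS1, EZH2, SETDB1, SUV39H1, HDAC6, HDAC8, HMGN3 and SMYD2 did not pass in every fit that left out 1 of the 6 arrays, with a highest adjusted p of 0.053 to 0.227. EZH2 passed in none of these 6 fits. JARID2 and EZH2 did not pass when the probes of a gene were averaged.

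Histone genes and DNA methylation genes were few on the array. Of 16 histone genes 3 fell (18.8%), 1 rose (6.25%) and 12 did not pass, with a median of -0.37. HIST1H2BN fell by 1.86 ± 0.28, from 13.22, 12.46 and 12.53 to 10.62, 10.77 and 11.22, with HIST1H1D (-1.08 ± 0.25) and H2AFX (-0.91 ± 0.24), while the macro-histone H2AFY rose (0.84 ± 0.19, 0.05 on its other probe). Of 17 DNA methylation genes the de novo methyltransferase DNMT3B rose (0.90 ± 0.24), DPPA3 fell, as given above, and 15 did not pass, DNMT3A among them (0.58 ± 0.17, adjusted p = 0.076). Of 26 imprinted genes ASCL2 and the zinc finger gene PEG3 (1.16 ± 0.27) rose, 0 fell and 24 did not pass. HIST1H1D, H2AFX, H2AFY, DNMT3B and PEG3 did not pass in every fit that left out 1 of the 6 arrays, with a highest adjusted p of 0.0903 to 0.184.

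Calcium-binding proteins were another group with many rises. Of 34 such genes, which bind calcium in the cytosol or at membranes, 9 rose (26.5%, against 3.49% of all named genes), 0 fell and 25 did not pass, with a median of 0.46. Above 0 were 29 of the 34 differences, against 7142 of 14568 over all named genes, and this was not tested. This list too was written with earlier results known. The calbindin CALB1, a cytosolic calcium buffer, read 7.75, 7.47 and 8.37 in day6 and 10.57, 10.76 and 12.09 in day6+2 (3.28 ± 0.34, adjusted p = 1.44e-05), and its other 2 probes differed by 0.99 and 1.08. S100A11 rose by 2.33 ± 0.53, to 13.86, 14.23 and 13.40, above each of its day6 arrays. ANXA4 rose by 1.81 ± 0.29 (1.07 and 1.60 on its other probes), S100A2 by 1.57 ± 0.28, ANXA1 by 1.44 ± 0.24 and S100A10 by 0.97 ± 0.20. The reticulum protein RCN1 (0.88 ± 0.21), S100A16 (0.71 ± 0.18) and ANXA3 made up the rest. S100A11, RCN1 and S100A16 did not pass in every fit that left out 1 of the 6 arrays, with a highest adjusted p of 0.0791 to 0.14.

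Among genes of the cytoskeleton, matrix and lysosome a small number stood out. TUBB6, a beta tubulin, read 9.23, 8.92 and 9.44 in day6 and 12.46, 12.17 and 11.60 in day6+2 (2.88 ± 0.32, adjusted p = 2e-05). It was 1 of 4 genes that rose among 64 of actin and motility (6.25%, against 3.49% of all named genes), where 0 fell. The others were the Arp2/3 subunit ARPC1B (1.79 ± 0.27), the calponin CNN1 (1.81 ± 0.44) and the actin assembly protein VASP (0.75 ± 0.18). PLAU, the urokinase that starts the breakdown of matrix, rose by 2.50 ± 0.31, from 12.41, 11.26 and 11.49 to 13.99, 14.71 and 13.96. It was 1 of 3 rises among 40 proteases and serpins (7.5%), with the cathepsins CTSZ and CTSH (1.27 ± 0.30). In that list 1 gene fell (2.5%, against 1.78% of all named genes), SERPINA5, which inhibits urokinase in human plasma (-1.61 ± 0.23). Of 50 genes of the lysosome and autophagy 4 rose (8.0%) and 1 fell (2.0%, near the 1.78% of all named genes). The cathepsin CTSZ (1.84 ± 0.36), the tetraspanin CD63 (1.65 ± 0.32, 0.96 on its other probe), NPC2 and the autophagy protein MAP1LC3A (0.75 ± 0.21, 0.25 on its other probe) rose. The protease LGMN fell (-0.81 ± 0.16). Of 41 genes of the matrix and integrins 9.76% rose and 4.88% fell. The laminin chains LAMB2 (0.99 ± 0.23) and LAMA5 (0.88 ± 0.24), LAMA1 and the syndecan SDC1 (0.92 ± 0.25) rose, and COL9A2 and SPARC (-1.0 ± 0.23) fell. CNN1, VASP, CTSH, MAP1LC3A, LAMB2, LAMA5, SDC1 and SPARC did not pass in every fit that left out 1 of the 6 arrays, with a highest adjusted p of 0.0785 to 0.248. MAP1LC3A and SDC1 passed in none of these 6 fits.

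Genes that respond to interferon formed a list of 33 tested. Of these 3 rose (9.09%, against 3.49% of all named genes), 0 fell and 30 did not pass, with a median of 0.17. Beside IFI30, they were the RNA-activated kinase EIF2AK2, from 6.43, 6.96 and 6.94 to 8.63, 9.11 and 9.11 (2.17 ± 0.35), and the ubiquitin ligase TRIM25 (1.46 ± 0.33, with 2.02 on slide 1 and 0.33 on slide 4). MX1, a classical interferon-induced GTPase, was not above background in day6, was higher in day6+2 by at least 1.73-fold and did not pass (adjusted p = 0.134), and ISG15 overlapped (-0.04 ± 0.31). Of 65 growth factors and receptors 6 fell (9.23%), 1 rose (1.54%) and 58 did not pass. Beside IL6 and STAT3, the falls were those of the receptor KIT (-1.25 ± 0.24), BMP2 (-1.17 ± 0.26), PDGFB (-0.97 ± 0.23) and IGFBP2 (-0.74 ± 0.19), and the receptor ERBB3 rose (1.06 ± 0.21). TRIM25, BMP2, PDGFB and IGFBP2 did not pass in every fit that left out 1 of the 6 arrays, with a highest adjusted p of 0.0829 to 0.169.

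The basic machinery of protein synthesis gave no calls. None of 61 ribosomal protein genes and none of 44 genes of translation and tRNA charging passed, with medians of 0.04 and -0.12. Of 39 proteasome genes only PSMD10 rose (0.76 ± 0.21) and of 42 splicing genes only HNRNPA2B1 (0.86 ± 0.22), and 0 fell in either list. The shares that rose were 2.56% and 2.38%, against 3.49% of all named genes. The ribosomal genes had median levels of 15.36 in day6 and 15.43 in day6+2, near the top of the scale, where differences are compressed. PSMD10 and HNRNPA2B1 did not pass in every fit that left out 1 of the 6 arrays, with a highest adjusted p of 0.204 to 0.259.

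Few markers of other cells passed the test. Of 26 oocyte genes and 11 cumulus and granulosa genes 0 rose and 0 fell. The median level of the oocyte genes was 7.45 to 7.53 on the day6 arrays and 7.24 to 7.49 on the day6+2 arrays, and that of the cumulus and granulosa genes 7.33 to 7.56 and 7.26 to 7.52. Of 12 leukocyte and erythroid genes HBB fell and 11 did not pass. Of 15 genes of fibroblasts and kidney epithelium, which the co-cultured VERO cells could contribute, LCN2 rose (1.55 ± 0.36), VIM did not pass (1.24 ± 0.55, adjusted p = 0.318) and the median level was 7.47 to 7.53 in day6 and 7.89 to 7.91 in day6+2, with 8 of the 15 above background on all 6 arrays. Its part in the other changes was not tested. None of 5 Y-linked genes passed, and XIST, the RNA that silences an X chromosome in female cells, overlapped (8.37, 9.27 and 9.78 against 8.77, 8.46 and 9.44). Of 19 X-linked genes MAGED2 (1.05 ± 0.29) and BEX4 (0.99 ± 0.23) rose, HPRT1 fell (-0.93 ± 0.25) and 16 did not pass. ACTB, often used for scaling, overlapped (0.24 ± 0.39). LCN2, MAGED2, BEX4 and HPRT1 did not pass in every fit that left out 1 of the 6 arrays, with a highest adjusted p of 0.0991 to 0.248.

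The day6+1 arrays placed these changes in time, as far as 1 intermediate point can. They share the day6 arrays with the main comparison, so the values are given side by side. The genes that rose had a median difference from day6 of 1.20 at day6+2 and of 0.90 at day6+1, and those that fell had medians of -1.06 and -0.76. These genes were chosen on the day6 arrays that both differences use. Whether the second extra day changed a feature differently from the first was tested directly in limma. Of the 34336 features 0 (0.0%) passed, with 1429 (4.16%) under an unadjusted p of 0.05. This test was less precise than the main comparison: for IFNT its standard error was 0.73, against 0.42. The genes with the smallest p in that test were the intermediate filament gene PRPH, with levels of 7.90 in day6, 10.63 in day6+1 and 10.44 in day6+2, the mevalonate pathway kinase PMVK, with 7.82, 9.26 and 8.64, and CHPT1, with 8.34, 11.11 and 11.51.

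The values for single genes varied in how far they had moved after 1 day, but no test separated the genes. NANOG and CYP11A1 differed from day6 by 2.32 and 2.84 at day6+1 and by 2.51 and 3.13 at day6+2. PLAU was at 2.53 and 2.50, and FADS2 at 1.64 and 1.69. IFNT was at 1.99 and 3.56, TUBB6 at 1.80 and 2.88, and ANKRD1 at 0.34 and 1.27. Of the falls, ARGFX was at -2.02 and -2.14, SERPINB4 at -0.98 and -2.21, and JARID2 at -0.63 and -1.27.

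**Figure D5:**
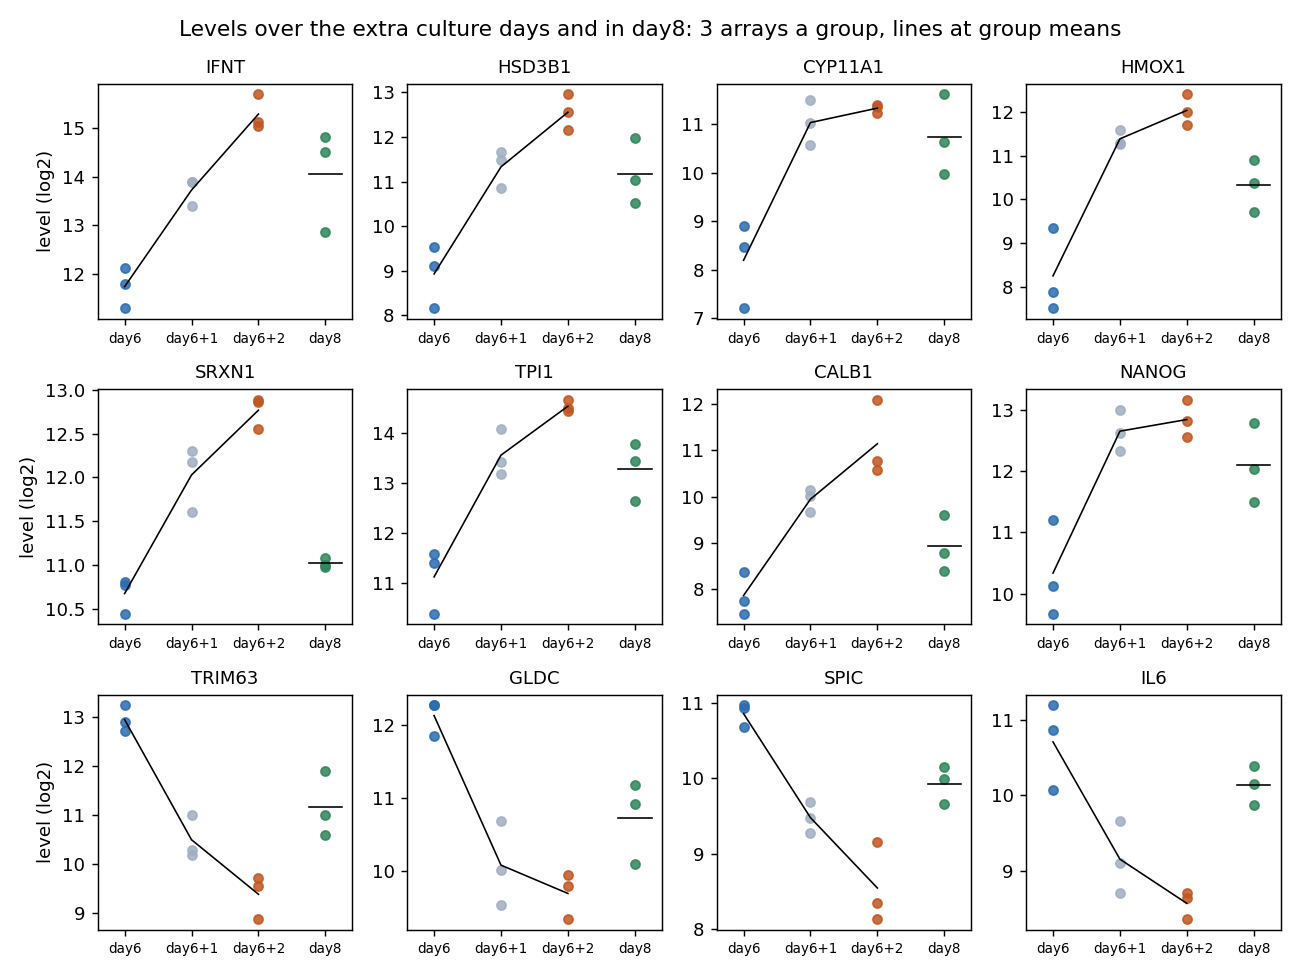
Level (log2 normalized intensity) of 12 genes on each array of day6, day6+1, day6+2 and day8, with lines at the group means; each panel has its own vertical scale. IFNT, SRXN1 and CALB1 lie higher on each day6+2 array than on any day6+1 or day8 array, while NANOG and CYP11A1 at day6+1 overlap day6+2.

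Blastocysts with the cavity formed on day 6 and 2 extra days had the same age as day8 blastocysts, whose cavity had only just formed. The groups were compared at this equal age. They differed both in time since cavity formation and in how early the cavity formed, and these cannot be told apart. The comparison gave 194 features past the threshold (0.565%), 65 higher in day6+2 and 129 lower. This count rested on single arrays: it was 1 to 11 when any 1 of the 6 arrays was left out and 1 with the slide as a fixed block, a fit in which the groups shared no slide. Of the 194, 89 had a correlation over 0.8, in size, with the first principal component, on which the 3 day8 arrays stood with day6+1 replicate 1 and day7 replicate 1. The 373 features that followed this component had means of 10.84, 10.78 and 10.34 in day8, against 8.47 to 8.70 in day6+2, and their part in the count cannot be told apart from the groups.

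Among the genes higher in day6+2 that did not follow the component, SRXN1 read 10.97 to 11.08 in day8, near its day6 level, and was 1.75 ± 0.23 higher in day6+2 (adjusted p = 0.00335). CALB1 read 8.78, 9.61 and 8.39 in day8 and was 2.21 ± 0.34 higher in day6+2 (adjusted p = 0.0186). PAG11 was 2.46 ± 0.51 higher and CHPT1 1.46 ± 0.28 higher. TRIM63 was lower in day6+2 than in day8 by 1.78 ± 0.38 on the log2 scale (adjusted p = 0.0384). Of these 5 calls, SRXN1 held in 5 of the 6 fits that left out 1 array (highest adjusted p = 0.0537) and CALB1 in 3 (highest 0.0969), while PAG11, CHPT1 and TRIM63 held in 0. With the slide as a fixed block CALB1 held (adjusted p = 0.0272) and the other 4 did not, with adjusted p of 0.205 to 0.433. For most of the leading genes the difference did not pass: IFNT differed by 1.23 ± 0.42 (adjusted p = 0.217), HMOX1 by 1.70 ± 0.41 (adjusted p = 0.0576), HSD3B1 by 1.38 ± 0.39 and TPI1 by 1.25 ± 0.37, and their day8 arrays lay on average above day6 and below day6+2.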

How the data were processed

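RNA from 3 arrays in each of 6 groups was measured. Per the file headers, each deposited scan held the unscaled median intensity of foreground and local background at every spot, with a column that marks spots set aside. The authors' deposited table was in log2 units; set against the scans, it matched the log2 of foreground minus background, quantile normalized, with column medians of 7.76 to 7.77. Per the submitters' processing notes, 9 of the 18 arrays were processed in R 3.2.4 with limma 3.28.5; for the other 9 the tools are not given in the sources used here.

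Here limma 3.58.1 (R 4.3.3) was used for normexp background correction with an offset of 50 and for quantile normalization. Marked spots were left missing. They made 181 missing values in the features tested, 77 of which lacked a value on an array of the 6, and limma fitted those from the remaining arrays. Probes above the 95th percentile of the negative controls on 3 or more arrays were kept (40080 of 43794, 91.5%). Of all probes 21790 had 1 gene symbol and 22004 none. A gene was represented by its brightest kept probe (3685 genes had several), and an unnamed probe stood for itself. Symbols are those of the platform annotation.

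Group means of all 18 arrays (6 groups) were fitted as a linear model in limma, with Benjamini-Hochberg adjustment over 34336 features and a threshold of 0.05; the fit was tested on simulated data. Where no array of a group exceeded the negative controls, a fold is printed as a lower bound. The genes named are the 15 largest rises and 15 largest falls among those past the threshold with arrays that did not overlap, up to 6 members of each list with the smallest p, further members by value, fixed markers (GAPDH, H3F3A and TET1 were not analysed here), and, in the other comparisons, the 5 largest each way or the 3 smallest p. Other loci beside these were chosen after their values were seen. The 46 gene lists, the members and this rule were written with earlier results of these data known. Gene order was taken from the RefSeq table of ARS-UCD2.0; promoter sequences were not used here. Replicate numbers did not pair the samples: the correlations of same-numbered arrays after removal of group means were 0.04, 0.03 and 0.16, so the fit has no block. The alternatives are given at the end.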

Additional observations from a re-analysis of the deposited data

Results flagged for a closer look

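The 5 named genes with the largest differences each way between day6+2 and day8 are given here because their changes from day6 differed between 2 extra days and a cavity formed on day 8, as tested by the limma difference between these groups (n = 3 arrays each, adjusted p under 0.05). Of the 10, 5 were higher in day6+2: PLCH1 by 3.31 ± 0.69, ARPP21 by 2.71 ± 0.61, GATA4 by 2.54 ± 0.55, PAG11 by 2.46 ± 0.51 and CALB1 by 2.21 ± 0.34. The other 5 were lower, with differences of -3.84 ± 0.83 for ROBO2, -3.77 ± 0.84 for ARSI, -3.66 ± 0.84 for APBB3, -3.62 ± 0.78 for ARMC5 and -3.42 ± 0.70 for ITGA7. These last 5 had correlations of 0.94 to 0.97 with the first principal component over the 18 arrays, and PLCH1 and GATA4 of -0.81. ARPP21 (-0.79), CALB1 (-0.38) and PAG11 (-0.26) were under 0.8 in size. The 6 fits that each left out 1 array of day6+2 or day8 called 1 to 11 features in this comparison, against 194 with all arrays. CALB1 passed in 3 of these 6 fits and the other 9 genes in 0. Day6+2 and day8 shared no slide. In the limma fit with the slide as a fixed block, CALB1 passed (adjusted p = 0.0272). The other 9 genes did not, with adjusted p of 0.201 to 0.531. With 3 arrays a group, no array was tested for standing apart from its group.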

How the results depend on the processing

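Between day6+2 and day6, 1224 features passed, and leaving out 1 array gave 689 to 1000. The other settings gave 1084 (background subtraction) to 1592 (slide as a fixed block over the 6 arrays alone, added after seeing the data), with the higher features making up 62.1% to 65.6%, against 62.2% to 68.8% without 1 array. The replicate block gave 1504, although same-numbered arrays were only weakly correlated, and it ended none of the 183 calls on named genes. Of those calls, 29 were lost within slide 1, 26 with averaged probes, 18 with background subtraction and 32 to 71 without 1 array. Every other setting that was tested ended 7 or fewer. Among those lost with averaged probes were AGPAT9, DGAT2, EZH2, HIST1H1D, HSP90B1, JARID2, MTHFD2, NDUFB6, NPC2, PFKFB3, PPARG, RCN1, S100A16 and SEL1L. No other probe is given above for these genes. Slide 4 alone allows no test, and there 98 of 259 values moved by more than the SD between replicates. The 194 features that differed between day6+2 and day8 became 1 to 11 without 1 array, 1 with the slide as a fixed block, 106 with it as a random block, 59 with averaged probes, 124 in the authors' table, 421 with background subtraction, 462 with the replicate block, 665 without day6+1 replicate 1 and day7 replicate 1, 798 over the arrays compared alone, and 105 without the features that follow the first component, an alternative chosen after seeing the data. The test of the second extra day against the first gave 0 features in all the settings run. The genes that turned direction passed in none of the fits that turned them. Within slide 1, GATA4 came to -0.13, HSPA1A to 0.0088 and ZFP37 to 0.13. Background subtraction, under which the median of all features was -0.10, gave KRT8 0.031 and TKDP4 -0.033, centring gave KRT8 0.0010, and averaging probes gave ISG15 0.080 and TKDP4 -0.13. Without 1 array, ACTB ran from -0.052 to 0.78, GATA4 from -0.16 to 0.39, IFNAC from -0.26 to 0.063, ISG15 from -0.22 to 0.15, KRT8 from -0.022 to 0.024, TKDP4 from -0.14 to 0.34, XIST from -0.63 to 0.071 and ZFP37 from -0.12 to 0.098. The cause of these shifts was not tested. Probes near the negative controls and near the top of the scale limit what the arrays resolve.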
